A study of Mus musculus with 22 samples.

Results

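Cyp7a1 and Cyp8b1, the cytochrome P450 enzymes that set how much bile acid the liver makes and of which kind, were described together with 6 genes of the feedback that restrains them. These are Nr1h4, Nr0b2, Nr5a2, Fgfr4, Klb and Mafg. The members were chosen by symbol, as genes of the deposited table whose Ensembl identifier carries one of these names in the GRCm38 annotation, and 8 of 8 were found among 15448 genes. Poly(A) RNA of liver was counted in 22 wild-type male mice of the CD2F1 hybrid strain, whose age the labels leave out. The sham-injected mice (CT, n = 6) carried no tumour and had vehicle, the C26 mice (n = 8) were given cells of C26, a mouse colon carcinoma line used as a model of cancer cachexia, and the C26-TDCA mice (n = 8) had the tumour cells and, each day, an injection into the peritoneum of taurodeoxycholic acid (TDCA) at 10 mg/kg. This acid is deoxycholic acid, a product of gut bacteria, joined to taurine. Whether the C26 mice had vehicle injections is not given in the sources used here.

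Bile acids are made from cholesterol in hepatocytes. Cyp7a1 catalyses the first and rate-limiting step of the main route, and Cyp8b1 adds the hydroxyl group that makes cholic acid in place of chenodeoxycholic acid and its mouse derivatives. Returning bile acids bind the nuclear receptor FXR, encoded by Nr1h4. In the liver FXR induces Nr0b2, which encodes the repressor SHP, and Mafg, a small Maf repressor of Cyp8b1. SHP acts through LRH-1, encoded by Nr5a2, a nuclear receptor that binds the promoters of both enzymes. In the ileum FXR induces the hormone FGF15, which reaches hepatocytes by the blood and binds the receptor FGFR4 with its coreceptor beta-Klotho, encoded by Klb.

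The libraries ranged in depth from 16.5 M counts to 25.3 M in CT, 17.5 M to 28.1 M in C26 and 20.5 M to 28.3 M in C26-TDCA. Each member had at least 51 counts in every library, and all 8 passed the filter on low counts. The labelled tissue was borne out by its markers: 10 hepatocyte markers summed to 65379 to 74534 counts scaled to library size (CPM) in CT, 58288 to 77171 in C26 and 62794 to 75140 in C26-TDCA. Levels below are CPM scaled between libraries by TMM, and tests are edgeR's quasi-likelihood test with Benjamini-Hochberg adjustment over all 14785 genes tested, called at an adjusted p under 0.05.

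The first comparison, C26 against CT, asked what the tumour changed. Both enzymes fell, Cyp7a1 about 14.9-fold and Cyp8b1 about 4.11-fold. Nr1h4, Klb and Mafg fell less, Nr5a2 and Fgfr4 rose, and Nr0b2 was not called. In all, 2 of 8 members were higher and 5 of 8 lower, with 7 of 8 called where 58.1% of all tested genes were called (28.9% higher and 29.2% lower). With library totals as the only scaling the members' counts were the same, while the shares of all genes became 15.5% higher and 53.2% lower. For 6 of 8 members the range of the C26 libraries did not overlap that of the CT libraries, which was so for 29.5% of all genes. The median log2 fold change of the members was -0.59, against -0.0031 over all genes tested. In whole liver, fewer cells of a type and less RNA per cell cannot be told apart.

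**Figure D1:**
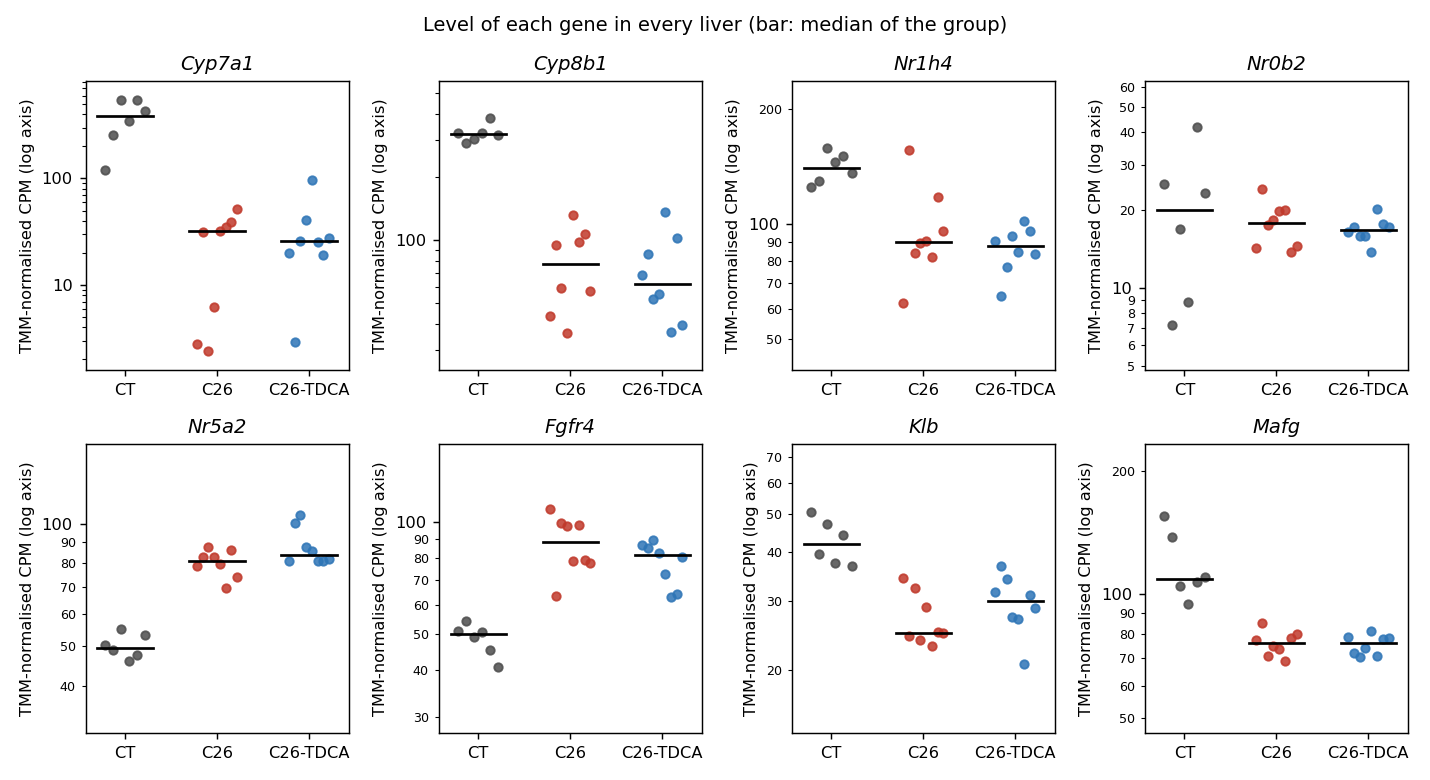
Level of each member in every liver (TMM-normalised CPM on a log axis, 1 point per library, bars at the group medians) in CT (grey, n = 6), C26 (red, n = 8) and C26-TDCA (blue, n = 8). Cyp7a1 and Cyp8b1 lie far lower in both tumour groups than in CT, Nr5a2 and Fgfr4 lie higher, and 3 C26 livers and 1 C26-TDCA liver have Cyp7a1 under 10 CPM.

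Cyp7a1 (ENSMUSG00000028240, chr4:6265612-6275633, minus strand) ranged in CT from 119 to 548 CPM with a median of 386. In C26 it ranged from 2.38 to 51.2 CPM with a median of 31.9, and in C26-TDCA from 2.90 to 96.2 CPM with a median of 25.8. Every CT liver lay above every tumour-bearing liver. The mean went from 374 ± 169 CPM (SD, n = 6) in CT to 25.1 ± 18.7 CPM (n = 8) in C26, a log2 fold change of -3.90 (SE 0.62, edgeR adjusted p = 8.37e-06). The approximate 95% interval of that fall runs from 6.14-fold to 36.3-fold. Of all tested genes, 0.392% had a lower log2 fold change in this comparison. The C26 livers did not form a single level: 3 of 8 lay between 2.38 and 6.23 CPM and the other 5 between 31.8 and 51.2 CPM. Even the lowest library held 51 counts of Cyp7a1.

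Cyp8b1 (ENSMUSG00000050445, chr9:121914356-121916305, minus strand) is a gene of a single exon. Its level in CT ranged from 290 to 382 CPM with a median of 321. In C26 it ranged from 36.1 to 133 CPM (median 77.3), and in C26-TDCA from 36.5 to 136 CPM (median 61.8). Neither tumour group overlapped CT. The mean fell from 323 ± 31.7 to 78.7 ± 34.3 CPM, a log2 fold change of -2.04 (SE 0.28, edgeR adjusted p = 8.33e-07). The RefSeq table of promoters for GRCm38.p6 held 7 of the 8 members, and Cyp7a1 was the missing entry. The promoter of Cyp8b1 is shown because LRH-1 and SHP are known to act there. The 250 bases before its start are chr9:121916306-121916555, read on the minus strand from 5′ to 3′, and the capitals mark the run CAAGG, the part shared by both letterings of the LRH-1 core searched (CAAGGTC and CAAGGCC, both strands).
Cyp8b1 promoter: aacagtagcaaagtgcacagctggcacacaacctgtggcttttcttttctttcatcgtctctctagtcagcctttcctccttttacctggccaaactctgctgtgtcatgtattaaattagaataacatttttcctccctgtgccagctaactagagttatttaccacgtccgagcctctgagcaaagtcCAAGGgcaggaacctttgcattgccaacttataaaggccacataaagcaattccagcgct
Neither full lettering is in this window. The run CAAGG, which was added after the sequences were seen, begins 60 bases before the start, and 46% of 32851 promoters of this length hold it on one strand or the other.

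Set against each other within a library, the enzymes did not fall alike. The log2 ratio of Cyp7a1 counts to Cyp8b1 counts was 0.05 ± 0.81 (SD, n = 6) in CT, so that both had about the same number of reads. It was -2.23 ± 1.45 (n = 8) in C26 and -1.51 ± 1.54 (n = 8) in C26-TDCA. The ratio needs no scaling between libraries. In CT it ranged from -1.44 to 0.85, in C26 from -4.63 to -0.16 and in C26-TDCA from -4.88 to -0.44, so that the groups overlapped. The difference between C26 and CT was -2.28 (two-sided exact permutation test, p = 0.00200, adjusted p = 0.00599 over 9 ratio tests). Between C26-TDCA and CT it was -1.55 (exact permutation p = 0.0186, adjusted p = 0.0336), and this call was lost with medians in place of means. It was also lost in 8 of 14 fits that left out 1 library, namely CT 05, 06, 07 or 08 or C26-TDCA 01, 02, 03 or 07.

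**Figure D2:**
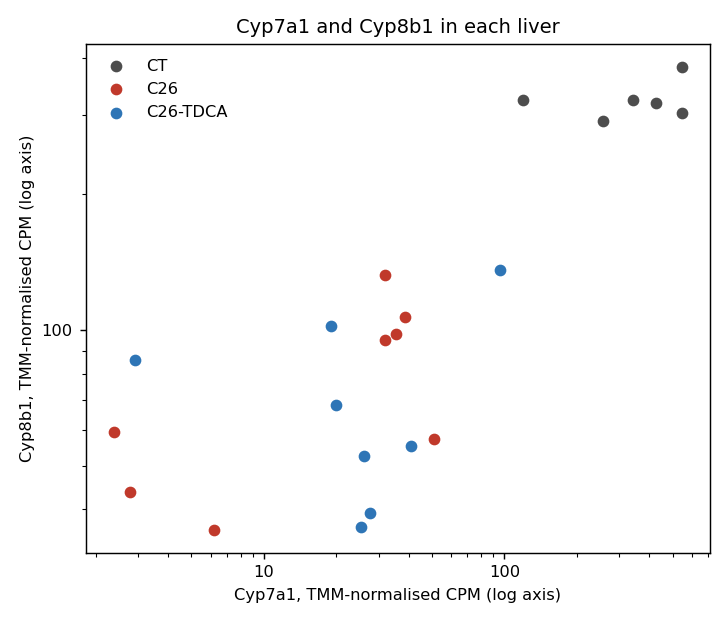
Cyp8b1 against Cyp7a1 in every liver (TMM-normalised CPM, both axes log, 1 point per library). The 6 CT livers stand apart at the upper right, and among the 16 tumour-bearing livers Cyp7a1 spans 2.38 to 96.2 CPM while Cyp8b1 spans 36.1 to 136 CPM.

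Nr1h4 (ENSMUSG00000047638, chr10:89454234-89533585, minus strand) encodes FXR, the receptor that senses bile acids. Its CT livers ranged from 125 to 158 CPM (median 141), its C26 livers from 62.1 to 157 CPM (median 89.6) and its C26-TDCA livers from 64.9 to 102 CPM (median 87.4). In C26 it overlapped CT because 1 library, C26 02, stood at 157 CPM. In C26-TDCA every liver lay under the lowest CT liver. The mean fell from 141 ± 12.8 to 97.2 ± 28.6 CPM in C26, a log2 fold change of -0.54 (SE 0.14, edgeR adjusted p = 0.00187).

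Nr0b2 (ENSMUSG00000037583, chr4:133553376-133556536, plus strand) encodes SHP, which lacks a DNA-binding domain and represses by binding other nuclear receptors. It ranged in CT from 7.19 to 42.1 CPM (median 20.1), in C26 from 13.7 to 24.2 CPM (median 17.9) and in C26-TDCA from 13.7 to 20.2 CPM (median 16.8). The tumour groups lay inside the CT range, and the widest spread was in CT. Its C26 log2 fold change against CT was -0.21 (SE 0.25, edgeR adjusted p = 0.485), with an approximate 95% interval from -0.73 to 0.30, and it was 0.13 without CT 07. The promoter of Nr0b2 is shown because it holds a full match to the LRH-1 core. The 250 bases before its start are chr4:133553126-133553375 on the plus strand, and the capitals mark CAAGGCC and other runs of CAAGG.
Nr0b2 promoter: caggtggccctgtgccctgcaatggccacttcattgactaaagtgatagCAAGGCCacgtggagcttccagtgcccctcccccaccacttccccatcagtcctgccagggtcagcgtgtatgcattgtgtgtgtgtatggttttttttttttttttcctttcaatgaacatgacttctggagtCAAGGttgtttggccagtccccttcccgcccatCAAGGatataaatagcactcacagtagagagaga
The match to CAAGGCC begins 201 bases before the start, and 5.16% of all promoters searched hold these letters on either strand. A match is a description of the letters and not a site of binding.

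The log2 ratio of Nr0b2 to Nr1h4 counts, the target against its receptor, was -3.02 ± 0.95 in CT, -2.43 ± 0.37 in C26 and -2.36 ± 0.22 in C26-TDCA. The CT livers spanned -4.17 to -1.84 and covered both tumour groups. The difference between C26 and CT was 0.60 (exact permutation p = 0.141, adjusted p = 0.182), and that between C26-TDCA and CT was 0.66 (exact permutation p = 0.0932, adjusted p = 0.140).

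Nr5a2 (ENSMUSG00000026398, chr1:136842571-136960448, minus strand) encodes LRH-1, the receptor that binds the promoters of both enzymes and is the target of SHP. It moved opposite to the enzymes. Its CT livers ranged from 46.0 to 55.0 CPM (median 49.7), its C26 livers from 69.4 to 87.8 CPM (median 81.2) and its C26-TDCA livers from 81.1 to 105 CPM (median 84.0). All tumour-bearing livers lay above all CT livers. The mean rose from 50.2 ± 3.41 to 80.2 ± 6.17 CPM in C26, or 1.60-fold (0.67 on the log2 scale, SE 0.07, edgeR adjusted p = 1.85e-08).

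Mafg (ENSMUSG00000051510, chr11:120625117-120633600, minus strand) encodes a small Maf protein, which has no activation domain. Its annotated span overlaps Sirt7 on the same strand, so that reads in the shared part are uncertain. It ranged in CT from 94.8 to 155 CPM (median 109), in C26 from 69.0 to 85.2 CPM (median 76.3) and in C26-TDCA from 70.4 to 81.5 CPM (median 76.0). The groups with tumours were lower without overlap and lay close together. The mean fell from 118 ± 23.1 to 76.2 ± 5.22 CPM in C26, a log2 fold change of -0.64 (SE 0.09, edgeR adjusted p = 6.76e-07).

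Fgfr4 (ENSMUSG00000005320, chr13:55152640-55168759, plus strand) encodes the main FGF receptor of hepatocytes. It ranged in CT from 40.7 to 54.2 CPM (median 49.9), in C26 from 63.4 to 108 CPM (median 88.1) and in C26-TDCA from 62.9 to 89.4 CPM (median 81.4). No tumour-bearing liver lay as low as the highest CT liver. The mean rose from 48.5 ± 4.77 to 87.6 ± 15.2 CPM in C26, or 1.81-fold (0.85 on the log2 scale, SE 0.11, edgeR adjusted p = 3.35e-07). Its promoter is shown beside that of Nr0b2 because it holds the other lettering of the LRH-1 core. The 250 bases before the RefSeq start are chr13:55152568-55152817 on the plus strand and reach into the span annotated by GENCODE, and the capitals mark GACCTTG, which is CAAGGTC on the opposite strand, and a run of CAAGG.
Fgfr4 promoter: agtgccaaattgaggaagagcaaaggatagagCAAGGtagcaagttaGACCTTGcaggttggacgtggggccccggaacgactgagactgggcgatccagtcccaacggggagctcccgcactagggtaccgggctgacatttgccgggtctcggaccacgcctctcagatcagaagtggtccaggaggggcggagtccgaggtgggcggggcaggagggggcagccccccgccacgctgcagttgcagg
These letters begin 203 bases before the start, and 3.32% of all promoters searched hold CAAGGTC on either strand. Nr5a2 has 2 of the 8 promoters of members. None of the 8 held the FXR inverted repeat AGGTCANTGACCT, the direct repeat AGGTCANAGGTCA or the small Maf core TGCTGA. Of all promoters, 0.00609%, 0.0335% and 16.1% held them. The 2 repeats are so rare that 8 windows of 250 bases would seldom hold one, and missing letters do not describe binding. The window of Nr1h4 and 1 of those of Nr5a2 lie inside the span annotated by GENCODE, and those of Klb and Mafg reach into it.

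Klb (ENSMUSG00000029195, chr5:65348314-65384007, plus strand) encodes beta-Klotho, without which FGF15 binds FGFR4 poorly. It ranged in CT from 36.9 to 50.5 CPM (median 41.9), in C26 from 23.1 to 34.4 CPM (median 24.9) and in C26-TDCA from 20.7 to 36.9 CPM (median 29.9). In C26 every liver lay under every CT liver. The mean fell from 42.7 ± 5.58 to 27.1 ± 4.29 CPM, a log2 fold change of -0.66 (SE 0.11, edgeR adjusted p = 2.20e-05). The coreceptor thus fell where the receptor rose.

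Within a library, the log2 ratio of Klb to Fgfr4 counts was -0.19 ± 0.20 (SD, n = 6) in CT, -1.69 ± 0.25 (n = 8) in C26 and -1.40 ± 0.19 (n = 8) in C26-TDCA. In counts, Fgfr4 had 1.14 reads for each Klb read in CT and 3.22 in C26. The CT livers, at -0.45 to -0.01, did not overlap the C26 livers, at -2.08 to -1.37, or the C26-TDCA livers, at -1.61 to -1.04. The difference between C26 and CT was -1.50 (two-sided exact permutation p = 0.000666, adjusted p = 0.00300). No smaller p can come from the 3003 ways to regroup these libraries. The call held once each library's trend of counts on transcript length and GC content was taken out (the trend correction below).

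**Figure D3:**
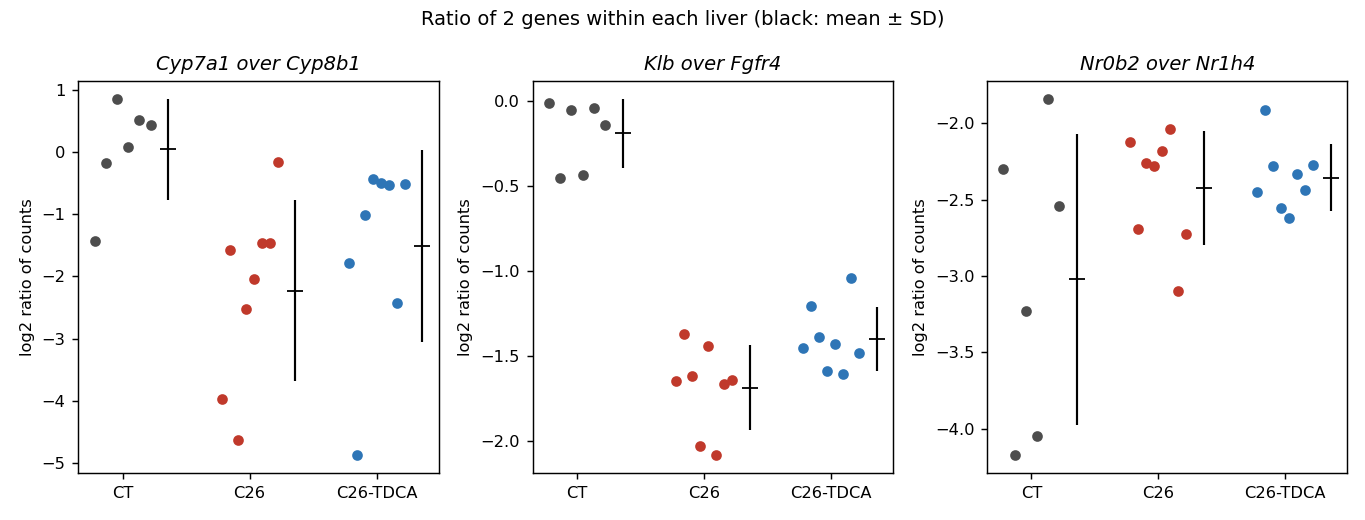
Log2 ratio of the counts of 2 genes within each liver, for Cyp7a1 over Cyp8b1, Klb over Fgfr4 and Nr0b2 over Nr1h4 (1 point per library, black bars at the mean ± SD) in CT (n = 6), C26 (n = 8) and C26-TDCA (n = 8). Klb over Fgfr4 separates CT, at -0.45 to -0.01, from both tumour groups, and Nr0b2 over Nr1h4 spreads most widely in CT.

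The second comparison, C26-TDCA against C26, asked what the bile acid changed in mice that carried the tumour. None of the 8 members was called by edgeR, against 1.97% of all tested genes (1.73% higher and 0.237% lower). At an unadjusted p under 0.05 there was 1 of 8, Nr5a2, which is near the 15.8% of all genes under that level, and DESeq2 and limma also called 0 of 8. For 0 of 8 members the ranges of the groups did not overlap, which was so for 0.149% of all genes. The median log2 fold change of the members was -0.05 and that of all genes -0.01.

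For Cyp7a1 the log2 fold change was 0.37 with an approximate 95% interval from -0.77 to 1.50 (edgeR adjusted p = 0.801), and it was -0.12 without C26-TDCA 05, the liver at 96.2 CPM. For Cyp8b1 it was -0.13, from -0.65 to 0.40 (edgeR adjusted p = 0.866). The interval of Cyp7a1 thus takes in both a rise and a fall of over 1.5-fold. Those of the regulators were narrower. Nr5a2, the LRH-1 gene, stood at 88.1 ± 9.40 CPM in C26-TDCA and 80.2 ± 6.17 CPM in C26, a log2 difference of 0.14 from 0.00 to 0.27 (edgeR's quasi-likelihood test, adjusted p = 0.313). After the trend correction with a replicate block it was -0.00036. Nr1h4 stood at -0.17, from -0.44 to 0.10 (edgeR adjusted p = 0.568), and Nr0b2 at -0.08, from -0.56 to 0.40 (edgeR adjusted p = 0.913). Mafg, at 75.5 ± 4.10 against 76.2 ± 5.22 CPM, differed by -0.01 with an interval from -0.18 to 0.15 (edgeR adjusted p = 0.958).

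Of the receptor pair for FGF15, Fgfr4 stood at 77.9 ± 10.2 CPM in C26-TDCA and 87.6 ± 15.2 CPM in C26, a log2 fold change of -0.17 from -0.37 to 0.03 (edgeR adjusted p = 0.415). Klb stood at 29.7 ± 4.96 against 27.1 ± 4.29 CPM, at 0.13 from -0.09 to 0.35 (edgeR adjusted p = 0.597). As a ratio within a library, Klb over Fgfr4 was higher by 0.29 on the log2 scale in C26-TDCA (two-sided exact permutation p = 0.0183, adjusted p = 0.0336), with overlapping ranges. That call was lost in 9 of 16 fits that left out 1 library, namely C26 01, 04, 06, 07 or 08 or C26-TDCA 01, 02, 03 or 07. With medians the difference was 0.20 and not called. It was 0.19 and not called after the trend correction (exact permutation, adjusted p = 0.149). The ratios of Cyp7a1 to Cyp8b1 and of Nr0b2 to Nr1h4 differed by 0.72 (exact permutation, adjusted p = 0.388) and 0.07 (adjusted p = 0.672).

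**Figure D4:**
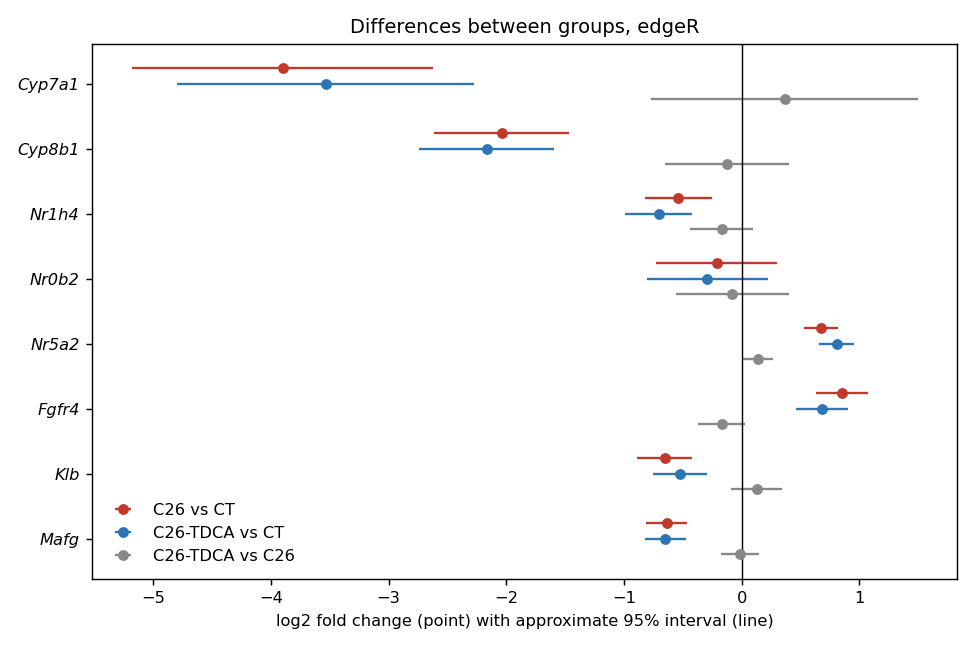
Log2 fold change of each member in the 3 comparisons (points) with approximate 95% intervals (lines), from edgeR over 22 libraries. The intervals of C26 and of C26-TDCA against CT leave 0 out for 7 of 8 members, and those of C26-TDCA against C26 hold 0 or, for Nr5a2 at 0.00 to 0.27, come within rounding of it.

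The third comparison set C26-TDCA against CT, and it shares its libraries with the other comparisons. Of the members, 7 of 8 were called, 2 higher and 5 lower, where 57.0% of all tested genes were called (28.7% higher and 28.2% lower). Ranges did not overlap for 7 of 8 members, against 31.6% of all genes, and for Klb they came within rounding of each other, at 36.9 CPM in the highest C26-TDCA liver and the lowest CT liver. Cyp7a1 stood at 32.2 ± 27.9 CPM and was lower by 3.53 on the log2 scale (log2 fold change -3.53, edgeR adjusted p = 2.50e-05). Cyp8b1, at 72.0 ± 34.2 CPM, had a log2 fold change of -2.17 (edgeR adjusted p = 3.44e-07). The enzymes thus stayed far under the CT level in the livers given TDCA.

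Among the regulators, Nr5a2 rose by 0.81 (edgeR adjusted p = 8.57e-10) and Fgfr4 by 0.68 (adjusted p = 8.07e-06) in C26-TDCA against CT. Nr1h4 had a log2 fold change of -0.71 (edgeR adjusted p = 0.000117), Mafg of -0.65 (adjusted p = 4.79e-07) and Klb of -0.53 (adjusted p = 0.000292). Nr0b2 was not called at -0.29 (edgeR adjusted p = 0.333). Its value was 0.050 without CT 07, and with library totals as the only scaling it was called at -0.59 (edgeR adjusted p = 0.038). The ratio of Klb to Fgfr4 was lower by 1.21 (log2 difference -1.21, exact permutation p = 0.000666, adjusted p = 0.00300).

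Levels of different members were compared per kb of exon. In CT the order of mean CPM per kb ran from Cyp8b1 (166) and Cyp7a1 (89.5) over Nr1h4 (61.2) to Mafg (21.1), Nr0b2 (18.2), Fgfr4 (13.7), Klb (9.38) and Nr5a2 (8.51). The range of Cyp8b1 lay above that of Cyp7a1, Nr1h4 above Mafg, and Fgfr4 above Klb, while the other neighbours overlapped. In C26 the order began with Nr1h4 (42.2 CPM per kb) and Cyp8b1 (40.3), whose ranges overlapped, followed by Fgfr4 (24.7), Nr0b2 (15.7), Nr5a2 (13.6) and Mafg (13.6). Cyp7a1 (6.00 CPM per kb) and Klb (5.95) came last, both under the range of Mafg and overlapping each other. In C26-TDCA all neighbours overlapped, from Nr1h4 (37.5 CPM per kb) and Cyp8b1 (36.9) over Fgfr4 (17.8 to 25.2), Nr5a2 (14.9), Nr0b2 (14.8) and Mafg (13.4) to Cyp7a1 (7.71) and Klb (6.52). FXR mRNA thus stood below that of both enzymes in CT by mean level, and close to that of Cyp8b1 in the tumour groups.

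The members also differed in how far livers of a group lay apart, which is described here without a test. The SD of log2 CPM of Cyp7a1 was 0.84 in CT, 1.83 in C26 and 1.42 in C26-TDCA, where the median over genes of at least 10 CPM was 0.12, 0.17 and 0.15. In the respective groups 99.6%, 99.9% and 99.9% of those genes had a smaller SD. Cyp8b1 had an SD of 0.14 in CT and of 0.67 and 0.66 in the tumour groups, so that its livers were alike in CT and unlike with the tumour. Nr0b2 went the other way, with an SD of 0.97 in CT, 0.29 in C26 and 0.16 in C26-TDCA. Mafg was similar in that respect, at 0.27, 0.10 and 0.08, and Nr5a2 had a narrow spread in all groups, at 0.10, 0.11 and 0.15. The labels do not give time of day at death or feeding state, with which Cyp7a1 and Nr0b2 are known to vary.

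**Figure D5:**
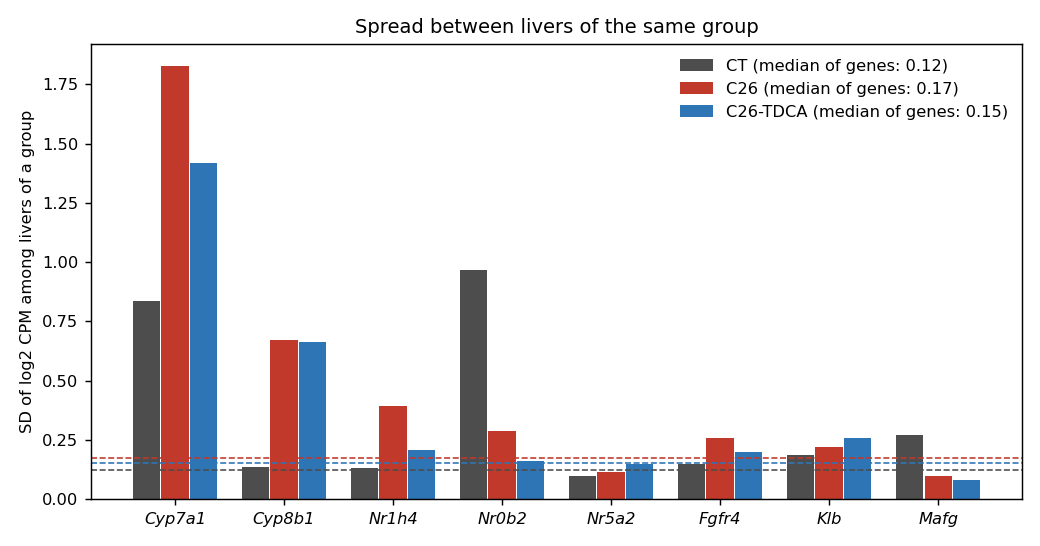
SD of log2 CPM among the livers of a group for each member (bars; CT n = 6, C26 n = 8, C26-TDCA n = 8), with dashed lines at the median SD over genes of at least 10 CPM. Cyp7a1 has the tallest bars in both tumour groups, at 1.83 and 1.42, Cyp8b1 goes from 0.14 in CT to 0.67 in C26, and Nr0b2 from 0.97 in CT to 0.29.

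Whether livers of a group with more of a regulator had more or less of an enzyme was tested within each group, over 13 pairs of members in 3 groups. Of the 39 correlations, 3 had an unadjusted exact permutation p under 0.05 and 0 were called after adjustment, by Pearson's r or Spearman's rho. For Cyp7a1 with Nr1h4 in CT, r was 0.87 and rho 0.89 (exact permutation p = 0.0222 and 0.0333, n = 6, adjusted p = 0.441 and 0.758). It was 0.77 without the 2 livers farthest from the median. For Cyp7a1 with Mafg in CT, r was -0.83 (exact permutation p = 0.0278, n = 6, adjusted p = 0.441) and turned to 0.67 without 2 livers, and for Cyp7a1 with Klb in C26 it was -0.72 (exact permutation p = 0.0371, n = 8, adjusted p = 0.441) and turned to 0.22. Cyp7a1 and Cyp8b1 had an r of 0.28 in CT, 0.68 in C26 and 0.04 in C26-TDCA.

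The genes most like each enzyme were ranked by the correlation of log2 CPM over 22 libraries after the mean of each group was subtracted, among 7534 genes, as a description. Closest to Cyp7a1 were Acsm5, a mitochondrial acyl-CoA synthetase (r 0.86), Ttc39c (0.85) and Syt1, a synaptotagmin (0.85). In CT alone these genes had r of 0.77, 0.43 and 0.70, against 0.86 to 0.96 in C26 and 0.72 to 0.88 in C26-TDCA. In C26 they fell too: Acsm5 went from a mean of 191 to 49.6 CPM, Ttc39c from 428 to 122 CPM and Syt1 from 21.6 to 7.58 CPM. Closest to Cyp8b1 were Etnppl, which breaks down phosphoethanolamine (0.86), Htatip2 (0.85) and Oat, the ornithine aminotransferase (0.84). Their r in CT alone was 0.52, 0.59 and 0.11, against 0.86 to 0.87 in C26 and 0.86 to 0.88 in C26-TDCA. Etnppl fell from 233 to 6.94 CPM in C26 and Htatip2 fell by 0.42 on the log2 scale, while Oat, alone among the 6 genes named here, rose, from 240 to 541 CPM. Cyp8b1 itself ranked 1302 in likeness to Cyp7a1 (r 0.39), and the member most like Cyp7a1 was Nr1h4 (r 0.60, rank 420). The members least like it were Klb (-0.59) and Fgfr4 (-0.54). All points share their library, and thereby its depth and makeup.

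The genes around the members are given by list, to be read against the shares of all tested genes in C26 against CT, 28.9% higher and 29.2% lower, and the median over all genes of -0.0031. Of 15 other enzymes of bile acid synthesis and conjugation, 10 were lower in C26 than in CT, 2 were higher and 3 were not called, with a median log2 fold change of -0.42. Over the alternatives run, 9 to 11 were lower and 1 to 2 higher. Cyp46a1, the cholesterol 24-hydroxylase, had a log2 fold change of -4.11 (SE 0.22, edgeR adjusted p = 1.22e-13), from 13.8 ± 2.12 CPM to 0.810 ± 0.376. Akr1d1, the 5-beta-reductase of the steroid nucleus, went from 170 ± 28.2 to 47.1 ± 21.1 CPM (-1.85, SE 0.21), and Abcd3, a transporter of the peroxisomal membrane, from 545 ± 44.1 to 187 ± 44.7 CPM (-1.55, SE 0.13). In C26-TDCA against CT 10 were lower, in all alternatives run, and 2 higher, with 0 to 2 higher over the alternatives. Hsd3b7 was not analysed here.

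Of 9 tested targets of FXR in liver other than Nr0b2 and Mafg, 3 rose, 3 fell and 3 were not called in C26 (median -0.16), close to the shares of all genes in both directions. Sdc1, the heparan sulfate proteoglycan syndecan 1, rose from 151 ± 12.1 to 421 ± 53.0 CPM and Fetub, a fetuin, from 295 ± 21.5 to 799 ± 124 CPM (log2 fold changes 1.48 and 1.44). All 3 that fell were pumps of the canalicular membrane, Abcb11 for bile salts, Abcb4 for phospholipid and Abcc2 for conjugates, the last from 560 ± 86.4 to 208 ± 43.9 CPM (-1.43). Of 11 corepressors that act with SHP or at Cyp7a1, 2 were higher, 1 was lower and 8 were not called (median -0.01). These counts depended on the scaling: with library totals only 8 were lower and 0 higher, where 53.2% of all genes were lower, and after the trend correction 3 were lower. Smarca2, the ATPase of a remodelling complex, fell by 0.82 (SE 0.08). Hdac1, a histone deacetylase, and Prox1, a corepressor of LRH-1, were higher by 0.26 (SE 0.07) and 0.42 (SE 0.12), but with library totals as the only scaling Hdac1 stood at -0.088 and Prox1 at 0.085, not called.

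Among 16 factors that act at the Cyp7a1 or Cyp8b1 gene, 9 fell, 2 rose and 5 were not called in C26 (median -0.32). With library totals only 14 were lower and 1 higher, and upper-quartile scaling gave 4 higher. The trend correction left 1 higher. Ppara, the fatty acid receptor that supports Cyp8b1, went from 136 ± 16.5 to 45.4 ± 20.1 CPM, which is -1.59 on the log2 scale (SE 0.25). Nr2f2, which encodes COUP-TFII, fell by 0.40 (SE 0.08). The 2 that rose in the main fit were Hnf4a, the hepatocyte factor that binds both enzyme promoters, and Cebpb. At most 1 of these 2 kept its call with library totals only, and at most 1 after the trend correction.

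Of 14 genes tested around the FGF receptors and their relays, 2 rose, 6 fell and 6 were not called in C26 (median -0.10), so that the number called was near the 58.1% of all genes. With library totals only 10 were lower, and with upper-quartile scaling 4 were higher. Fgfr1 rose from 3.43 ± 0.487 to 14.7 ± 3.18 CPM, which is 2.09 on the log2 scale (SE 0.14), while Fgfr3 fell from 50.3 ± 10.97 to 25.1 ± 4.83 CPM (-1.01, SE 0.12). Mapk9, which encodes the kinase JNK2, fell by 0.51 (SE 0.06). Fgf15, the ileal hormone, was not analysed here. Sos1, the exchange factor that activates Ras, was the only gene of the 8 pathway lists called between C26-TDCA and C26. It was higher by 0.35 in C26-TDCA (SE 0.09, edgeR adjusted p = 0.0425), and by 0.056 and not called after the trend correction. Of 22 fits that left out 1 library, the call held in the 6 without CT 01, C26 01, 02 or 03, or C26-TDCA 07 or 08.

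Of 8 genes of the small Maf family and its partners, 3 were higher and 2 lower in C26 (median 0.09), near the shares of all genes. Only 1 was higher with library totals only or after the trend correction. Nfe2l2, which encodes NRF2, went from 59.3 ± 4.16 to 31.9 ± 2.84 CPM, which is -0.90 on the log2 scale (SE 0.07), and Maff, a close relative of Mafg, from 7.13 ± 2.12 to 2.45 ± 0.858 CPM (-1.54, SE 0.24). Nfe2l1 was higher by 0.30 (SE 0.06), but stood at -0.039 with library totals as the only scaling. Of 11 genes of cytokines that act on hepatocytes and their signalling, 9 were higher, 0 lower and 2 not called by edgeR (median 1.62). Over the alternatives run, 6 to 10 were higher and 0 to 1 lower. Socs3, a feedback inhibitor of cytokine receptors, went from 8.20 ± 3.32 to 248 ± 24.7 CPM (4.92, SE 0.19), Stat3 from 92.8 ± 7.80 to 338 ± 21.7 CPM (1.87, SE 0.07), and the TNF receptor Tnfrsf1a from 45.9 ± 5.33 to 174 ± 17.3 CPM (1.93, SE 0.09).

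Of 16 genes of the circadian clock, which is known to drive Cyp7a1, 11 fell, 2 rose and 3 were not called in C26 (median -0.78). The output factors Hlf and Tef, which bind the same element as Dbp, went from 89.7 ± 5.16 to 33.7 ± 8.06 CPM and from 278 ± 14.4 to 108 ± 39.6 CPM (log2 fold changes -1.41 and -1.36), and Nfil3, their repressive counterpart, rose from 11.9 ± 1.65 to 46.9 ± 12.2 CPM (1.97). Whether the groups were killed at the same hour is not given in the sources used here.

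Markers of other cells moved with the tumour beside these results. Of 8 Kupffer cell markers, 8 were higher in C26, and their summed level was 229 to 264 CPM in CT and 360 to 553 CPM in C26. Those of monocytes and neutrophils, 7 of 8 higher, summed to 2.41 to 6.57 CPM and 19.5 to 50.8 CPM. Sinusoidal endothelial markers, 6 of 7 higher, summed to 194 to 236 CPM and 256 to 469 CPM, and stellate cell markers, 6 higher and 2 lower of 8, to 256 to 327 CPM and 332 to 518 CPM. Of 5 cholangiocyte markers, 2 were higher, Sox9 and Spp1, and 3 were not called, with a median log2 fold change of 0.08. The sum of all 5 was 19.3 to 32.6 CPM in CT and 239 to 763 CPM in C26, a rise that the median of the list did not share. Of 6 listed markers of intestinal epithelium, where FGF15 is made, Vil1, Fabp6 and Cdx2 were not among the genes counted. Of the 3 that were, 1 was higher and 2 lower, and they summed to 105 to 131 CPM in CT and 80.9 to 122 CPM in C26. No listed marker in the table was at 0 in every library of a group. Of the hepatocyte markers, 3 of 10 were higher and 4 lower in C26, and their sums overlapped between the groups. The part of these cells in the changes of the members was not tested. In C26-TDCA the sums overlapped those of C26, at 425 to 563 CPM for Kupffer cells and 17.7 to 44.1 CPM for monocytes and neutrophils. The 5 cholangiocyte markers together summed to 260 to 637 CPM there, which also overlapped C26.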

How the data were processed

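Raw read counts per Ensembl gene, as the authors deposited them, were used for 22 liver libraries at depths of 16.5 M to 28.3 M. The submitters' processing notes name HISAT2 2.2.1 and featureCounts 2.0.3 beside Trimmomatic 0.40, bcl2fastq 2.17, FastQC and DESeq2 1.42.0, and the build GRCm38. Strand setting, annotation release and the handling of multimapping reads were not given in the sources used here. Gene names and coordinates are from GENCODE M21.

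In edgeR 4.0.16 (R 4.3.3), filterByExpr kept 14785 genes, TMM scaled the libraries, and the quasi-likelihood test was fitted over all groups. Each SE was approximated by dividing the size of the log2 fold change by the root of its F statistic. Ratios between members are log2 of counts plus 0.5, compared by two-sided exact permutation tests with Benjamini-Hochberg adjustment over 9 tests (scipy 1.17.1). Of the methods, only the edgeR fit was tested on simulated counts, for C26 against CT. P-values of group differences set them against the spread between these samples, which the design text gives as separate mice. The closest 2 libraries of a group differed by a chi-square of 11 per degree of freedom.

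The members, the 8 pathway lists, the 7 marker lists and the rule for named genes (from each pathway list up to 3 called genes by smallest p in C26 against CT, any called between C26-TDCA and C26, and the 3 genes most like each enzyme) were chosen with earlier results of these data known. One gene that this rule gives is not reported here. Other genes named as members of a list were chosen after their values were seen. Alternatives were RLE and upper-quartile scaling, no filter, only the groups compared, a replicate block, the length and GC trend removed by loess, limma 3.58.1 (voomWithQualityWeights), DESeq2, leaving out each library, and, both added after seeing the data, library totals as the only scaling and the trend removal for ratios.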

Additional observations from a re-analysis of the deposited data

Results flagged for a closer look

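Of 33 sets of values checked, the levels of the 8 members and the 3 ratios in each group, 3 had a sample far from the others of its group, and chance gives about 1 in 20. Cyp7a1 in C26-TDCA 05 stood at 96.2 CPM, where the next highest C26-TDCA liver was at 40.7 CPM. That liver also had the highest Cyp8b1 of its group, at 136 CPM. Cyp8b1 in CT 07 stood at 382 CPM, where the next CT liver was at 323 CPM, and CT 07 also had the highest Nr0b2 of its group (42.1 CPM). Its Cyp7a1, at 548 CPM, was the highest as well but did not stand apart from CT 05, at 546 CPM. The log2 ratio of Cyp7a1 to Cyp8b1 in C26-TDCA 02 was -4.88, where the next lowest was -2.43, with 2.90 CPM of Cyp7a1 and 85.8 CPM of Cyp8b1.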

How the results depend on the processing

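The numbers of members called, 7, 0 and 7 in the 3 comparisons, held in 32 alternatives, except that 8 were called in C26-TDCA against CT with library totals only, where Nr0b2 passed. That scaling moves the median of all genes to -0.34 in C26 and -0.30 in C26-TDCA against CT. The directions of the 7 called members held in both comparisons with CT under all alternatives run. Over all genes, C26-TDCA against C26 gave 291 calls, 17 after the trend correction, 28 with that and a replicate block, 45 with only the 2 groups, 468 with limma, 551 with DESeq2 and 59 to 594 with a library left out. Each member had at least 51 counts in every library. How far depth and the spread between livers each limit these comparisons was not tested.

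Values near 0 changed sign, and the cause was not tested. Between C26-TDCA and C26, Mafg was 0.019 with library totals only, 0.045 after the trend correction, 0.048 with that and the block, and -0.033 to 0.011 with a library left out. Nr0b2 was 0.0037 after the trend correction and Nr5a2 -0.00036 with that and the block. With a library left out, Cyp8b1 ran from -0.32 to 0.023 (above 0 without C26 05) and Cyp7a1 from -0.12 (without C26-TDCA 05) to 0.60. Nr0b2 ran from -0.39 to 0.13 in C26 and from -0.47 to 0.050 in C26-TDCA against CT, both above 0 without CT 07. With library totals only, Hdac1 was -0.088 and Nfe2l1 -0.039 in C26 against CT. The ratio of Nr0b2 to Nr1h4, C26-TDCA minus C26, was -0.11 with medians and -0.029 (without C26 07) to 0.12 with a library left out.

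The ratio of Cyp7a1 to Cyp8b1, C26-TDCA minus CT, was -1.03 and not called with medians, and ran from -1.85 to -1.07 with a library left out. That of Klb to Fgfr4, C26-TDCA minus C26, was 0.20 with medians and 0.19 after the trend correction, neither called, and ran from 0.23 to 0.33 with a library left out.

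Deviations from the group mean in same-numbered libraries had r from -0.20 to 0.34 (median 0.02, over 0.1 in 6 of 20 pairs). For libraries of different number r ran from -0.25 to 0.34 (median -0.006, over 0.1 in 16 of 140 pairs). Whether the replicate numbers pair the mice was not tested. With the replicate block the numbers of members called did not change. For the ratios the block gave -1.83 and -1.82 for Cyp7a1 over Cyp8b1 in C26 and C26-TDCA against CT, and -1.45, -1.18 and 0.29 for Klb over Fgfr4 in C26 and C26-TDCA against CT and between them. None was called (exact permutation, adjusted p = 0.05625), where 6 pairs with CT allow no p under 0.03125.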
